A study of Mus musculus with 7 samples.

Results

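The insulin-like growth factor 1 (IGF1) system is described here through 10 genes: the ligand Igf1, the receptors Igf1r and Igf2r, the receptor substrate Irs1, and the binding proteins Igfbp2, Igfbp3, Igfbp4, Igfbp5, Igfbp6 and Igfbp7. They were chosen by gene symbol, and all 10 were found among the 55228 rows of the count table and were among the 15798 genes tested. Granulosa cells, the somatic cells around the oocyte, had been taken from C57BL/6J mice and received no treatment. The groups were wild type (WT, 4 libraries) and Fhl2 knockout (Fhl2 KO, 3 libraries), the latter lacking by label the LIM-domain cofactor FHL2. The design text of the series speaks of 5 samples, while 7 are listed and used here; which 5 were meant is unclear. The labels give neither the age of the mice nor the kind of allele. Nothing in them says that the libraries are from different mice or cultures, and the p-values therefore describe only how these libraries vary, which may be technical.

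IGF1 is a secreted growth factor that rodent granulosa cells make themselves, and it is known to act together with follicle-stimulating hormone (FSH) on their growth and steroid output. It signals through the receptor tyrosine kinase IGF1R and the docking protein IRS1 to phosphoinositide 3-kinase and AKT. The IGFBP family binds the ligand outside the cell and controls how much of it reaches the receptor, while IGF2R carries IGF2 and mannose-6-phosphate-tagged enzymes to lysosomes and has no kinase.

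Library totals ran from 38855596 to 50514556 counts, so a floor of 3 counts lies between 0.0594 and 0.0772 CPM of the unscaled total, for counting error only. Elsewhere CPM are counts relative to the library total after TMM scaling. Fhl2 reads remained in the KO libraries, at 54.1% of the WT level (log2 fold change -0.88, SE 0.107, adjusted p by edgeR = 3.29e-05). The 15 granulosa cell markers summed to 6703 to 7377 CPM in WT and 5924 to 7036 in KO. Of 14 tested, 3 were higher and 7 lower, against 13.5% and 15.6% of all genes tested. Foxl2 was at 64.3 to 79.3 CPM in WT and lower, at 48.3 to 59.9, in KO (log2 fold change -0.42, adjusted p by edgeR = 0.00793). The aromatase Cyp19a1 had 0 counts in every WT library and at most 17 in a KO library. Levels also followed transcript length differently between libraries. For each doubling of length, the change in log2 CPM was 0.0626 to 0.0879 in WT libraries, -0.00121 in KO library 1, -0.179 in KO library 2 and -0.141 in KO library 3, relative to the mean of all libraries. This matters for Igf1r (11.41 kb), Irs1 (9.14 kb), Igf2r (8.89 kb) and Igfbp5 (6.01 kb), whose mean protein-coding transcripts are as long as or longer than those of at least 95.5% of the genes tested. Values after removing each library's trend on length and GC content are therefore given beside the others as corrected values.

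In the KO libraries the ligand transcript was lower and the binding proteins moved in both directions. Igfbp4 rose 2.14-fold and Igfbp6 1.55-fold, while Igf1, Igf2r, Irs1, Igfbp2 and Igfbp7 fell, to between 60.0% and 78.7% of their WT means (n = 4 WT and 3 KO). Igf1r, Igfbp3 and Igfbp5 did not pass the threshold. In all, 7 of the 10 genes passed an edgeR adjusted p of 0.05, against 29.0% of all genes tested, with 2 higher (13.5% of all genes) and 5 lower (15.6%). The WT and KO libraries did not overlap in 9 of the 10 genes, against 34.2% of all genes. KO was higher for 3 of them (16.4% of all genes) and lower for 6 (17.7%). The median log2 fold change was -0.29 over the 10 genes and -1.84e-04 over all genes tested. After correction 8 of 10 passed, 4 in each direction, against 23.3% of all genes, and the median was 0.08. In KO library 1 alone against WT, 4 passed (Igf1 and Igfbp2 lower, Igfbp4 and Igfbp5 higher), against 4.60% of all genes. With 1 library in that KO arm, the spread comes from the WT libraries alone and the KO library is assumed to vary like them, so these p-values hold nothing about variation between KO libraries, here and wherever KO library 1 alone is given below. Without KO library 3, 4 of 10 passed, 1 higher and 3 lower, against 10.2% of all genes.

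**Figure D1:**
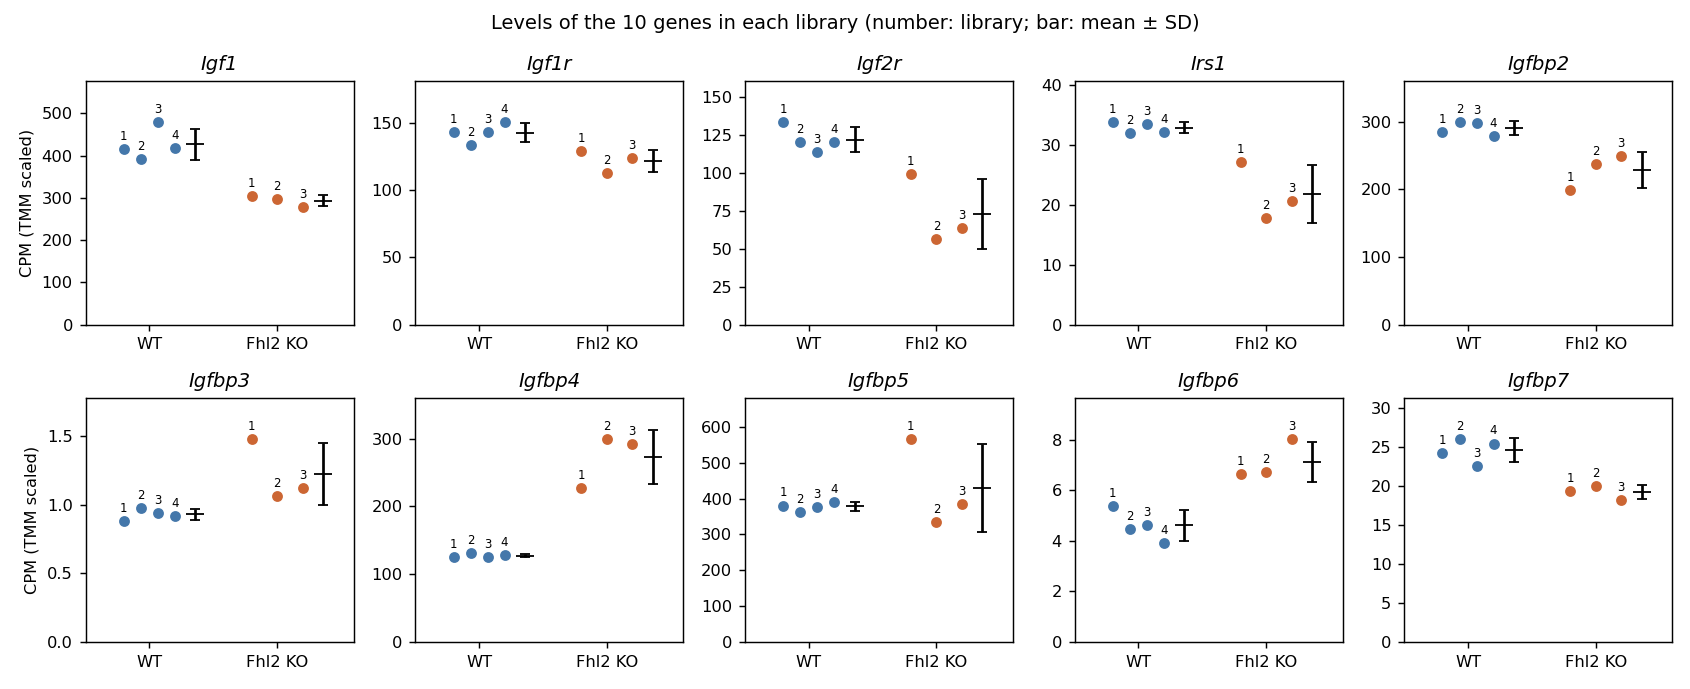
CPM of each of the 10 genes (vertical axis, from 0) in the WT and Fhl2 KO libraries, with points numbered by library and black bars for mean ± SD (n = 4 WT and 3 KO). Igfbp4 was at 124.9 to 130.9 CPM in WT and at 227.1 to 299.6 in KO, and Igfbp5 is the gene whose groups overlap.

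For Igfbp4, which rose most, and for Igf2r and Irs1, which fell most before correction (after it Igfbp2 fell most, by 0.59, and Irs1 did not pass), the 250 bases before the RefSeq start site (GRCm38.p6, the mm10 build) are shown as the sequence context of these changes. RefSeq promoter entries were found for all 10 genes, 11 entries in total. The window of Igf1 lies within exons annotated for longer Igf1 transcripts and is not shown. Capitals mark matches, on either strand, to 4 short motifs: the TATA box TATAAA, the core bound by TEAD factors GGAATG, the E-box CACGTG, and CCAAT. Igfbp4 is at chr11:99040994-99041243 on the plus strand, Igf2r at chr17:12769707-12769956 and Irs1 at chr1:82291440-82291689, both on the minus strand.
Igfbp4: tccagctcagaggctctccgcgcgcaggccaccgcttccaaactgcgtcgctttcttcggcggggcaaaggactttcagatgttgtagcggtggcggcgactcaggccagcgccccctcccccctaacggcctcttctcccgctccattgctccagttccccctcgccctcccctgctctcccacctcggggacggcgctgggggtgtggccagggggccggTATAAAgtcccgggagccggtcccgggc
Igf2r: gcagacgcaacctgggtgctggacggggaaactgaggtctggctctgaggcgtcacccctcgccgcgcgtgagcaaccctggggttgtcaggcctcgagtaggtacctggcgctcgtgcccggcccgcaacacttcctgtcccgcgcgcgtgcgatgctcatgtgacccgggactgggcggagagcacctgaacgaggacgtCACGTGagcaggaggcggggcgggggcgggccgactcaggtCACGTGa
Irs1: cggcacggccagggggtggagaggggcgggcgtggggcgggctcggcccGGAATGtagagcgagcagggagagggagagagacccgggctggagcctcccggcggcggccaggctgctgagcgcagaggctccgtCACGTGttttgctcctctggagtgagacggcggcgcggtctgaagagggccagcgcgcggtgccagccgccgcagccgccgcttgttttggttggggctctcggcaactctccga
The Igfbp4 stretch holds a TATA box that begins 28 bases before the start site. Matches to this motif were found in 13.6% of the 32851 RefSeq promoter windows of 300 bases. They were found in 2 of the 11 windows of these genes, those of Igfbp4 and Igfbp6. The Igfbp6 match is on the opposite strand (TTTATA) and begins 148 bases before the start, unlike that of Igfbp4. Igf2r holds 2 E-boxes, beginning 48 and 7 bases before the start. Irs1 holds 1 E-box and 1 TEAD core, at 115 and 201 bases before it. The E-box was present in 7.15% of all windows and in 3 of the 11 windows of these genes (Igfbp2, Irs1 and Igf2r). The TEAD core was present in 14.7% of all windows and in 2 of the 11, those of Igfbp5 and Irs1. CCAAT occurred in 37.4% of all windows and in those of Igf1 and Igfbp6. These are matches of letters and show no binding.

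The ligand Igf1 lies on the plus strand of chromosome 10 from 87858265 to 87937042 (mm10). It had 416.2, 392.8, 480.6 and 417.3 CPM in WT libraries 1 to 4 and 305.0, 296.8 and 279.1 CPM in KO libraries 1 to 3. Every KO library was below every WT library, and the KO libraries lay close together. The WT mean was 426.7 ± 37.7 CPM (SD, n = 4) and the KO mean 293.6 ± 13.2 (SD, n = 3), and Igf1 fell by 0.54 on the log2 scale (SE 0.0928, adjusted p by edgeR = 8.01e-04). After correction the change was -0.49 (adjusted p = 2.23e-04). In KO library 1 alone it was also -0.49 (adjusted p = 0.00556, with the spread of the WT libraries only). The correction depends on the length assigned to Igf1, whose 8 protein-coding transcripts average 1.96 kb but reach 7.05 kb: with the longest transcript of each gene the change was -0.20 and the adjusted p 0.108. The antisense gene Igf1os, which lies within the span of Igf1 with no exon in common, had at most 17 counts in any library.

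Genes whose levels followed Igf1 most closely over the 7 libraries were Hells, a chromatin-remodelling helicase, the acyl-CoA synthetase gene Acsl3, Amot (angiomotin, a partner of YAP), the kinase gene Hipk1 and the proteasome adaptor Ecpas. Their Pearson r with Igf1 on log2 CPM ran from 0.993 to 0.997 among 8810 genes considered. As a description only: all 5 were lower in the KO mean, and the libraries shared by every gene here also share the genotype split and the length trend. Hells, for example, averaged 63.2 CPM over the WT libraries and 36.2 over the KO libraries.

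Of the receptors, Igf2r showed the larger difference. This gene (chromosome 17, minus strand, 12682406 to 12769664) is expressed from the maternal allele in most mouse tissues. Its level was 133.7, 120.1, 113.5 and 120.3 CPM in WT libraries 1 to 4 and 99.3, 56.2 and 63.8 CPM in KO libraries 1 to 3. KO library 1 lay nearer to WT than the other KO libraries, though still below each WT library. Igf2r fell by 0.74 on the log2 scale (SE 0.170, adjusted p by edgeR = 0.0105) and after correction by 0.33 (SE 0.0816, adjusted p = 0.0100). The call was lost without KO library 3 (adjusted p = 0.0603) and in KO library 1 alone (-0.30, adjusted p = 0.0982). Airn, the antisense transcript that silences the paternal Igf2r allele, had 28 to 50 counts per library, and its exons do not overlap those of Igf2r.

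Igf1r, the signalling receptor, lies on the plus strand of chromosome 7 from 67952827 to 68233668. It had 143.0, 133.5, 143.1 and 150.6 CPM in WT libraries 1 to 4 and 128.5, 112.3 and 123.5 CPM in KO libraries 1 to 3. The groups did not overlap, but the difference missed the threshold (log2 fold change -0.23, SE 0.0880, adjusted p by edgeR = 0.0569). Its sign turned after correction, to 0.30 (SE 0.0909, adjusted p = 0.0281), so no direction can be given for Igf1r. It has the longest mean transcript of the 10 genes, at or above 99.7% of the genes tested. The ratio of Igf1r to Igf2r levels per kilobase, which does not depend on library scaling, was 0.833 to 0.982 in WT libraries and 1.01, 1.56 and 1.51 in KO libraries 1 to 3. KO library 1 was again the closest to WT.

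Irs1, the docking protein that links IGF1R and the insulin receptor to phosphoinositide 3-kinase, lies at 82233101 to 82291416 of chromosome 1, minus strand. Its level was 34.0, 32.1, 33.5 and 32.2 CPM in WT libraries 1 to 4, a narrow range, and 27.2, 17.8 and 20.7 CPM in KO libraries 1 to 3. Irs1 fell by 0.59 on the log2 scale (SE 0.122, adjusted p by edgeR = 0.00269). Of that, -0.15 was left after correction (SE 0.0711, adjusted p = 0.150), and in KO library 1 alone the difference was -0.28 (adjusted p = 0.180). Its relative Irs2 has the same docking role, with 295.3 ± 26.3 CPM in WT and 272.4 ± 47.7 in KO (log2 fold change -0.12, adjusted p by edgeR = 0.459).

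**Figure D2:**
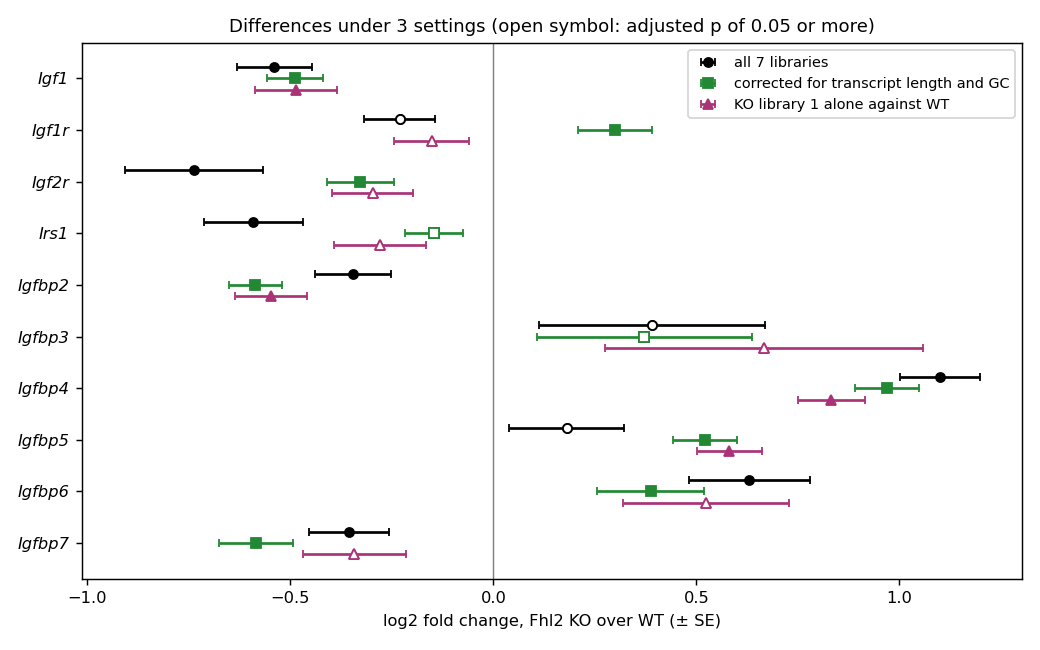
Log2 fold change of Fhl2 KO over WT with its SE (horizontal axis) for each gene, over all 7 libraries (circles), corrected for transcript length and GC (squares) and for KO library 1 alone (triangles), with open symbols where the adjusted p was 0.05 or more. Igfbp4 lay between 0.83 and 1.10 and Igf1 between -0.54 and -0.49 in all 3 settings, while Igf1r changed sign with the correction.

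Among the binding proteins, Igfbp4 had the largest difference of the 10 genes. IGFBP4 holds back IGF action and is the substrate of the protease PAPP-A in follicles. The gene is on the plus strand of chromosome 11 from 99041244 to 99054392. It had 125.9, 130.9, 124.9 and 127.8 CPM in WT libraries 1 to 4 and 227.1, 299.6 and 292.3 CPM in KO libraries 1 to 3. The WT libraries were nearly level and each KO library was far above them. The mean went from 127.4 ± 2.65 (SD, n = 4) to 273.0 ± 39.9 CPM (SD, n = 3), a log2 fold change of 1.10 (SE 0.0980, adjusted p by edgeR = 9.58e-07). It was past the threshold in each of the 20 alternative settings, at 0.83 to 1.24, with the smallest change in KO library 1 alone. Its absolute change was at or above that of 97.2% of all genes tested.

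Igfbp6, whose product prefers IGF2 over IGF1, also rose but from a low level. Its counts were 209, 225, 217 and 171 in WT libraries 1 to 4 and 260, 315 and 366 in KO libraries 1 to 3, or 4.61 ± 0.610 CPM (SD, n = 4) and 7.13 ± 0.790 CPM (SD, n = 3). All KO libraries were above all WT libraries (log2 fold change 0.63, SE 0.148, adjusted p by edgeR = 0.00582; corrected 0.39, adjusted p = 0.0448). Under the length correction with longest transcripts the change was 0.40 and did not pass (adjusted p by edgeR = 0.0571). The call was lost without KO library 3 (adjusted p = 0.0537) and in KO library 1 alone (0.52, adjusted p = 0.163).

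Igfbp2 was the binding protein with the highest level per kilobase in both groups. It had 284.3, 300.2, 298.8 and 279.0 CPM in WT libraries 1 to 4 and 199.2, 237.8 and 249.2 CPM in KO libraries 1 to 3. Here KO library 1 was the lowest of all libraries, unlike for Igf2r and Irs1. Igfbp2 fell by 0.35 on the log2 scale (SE 0.0937, adjusted p by edgeR = 0.0125), by 0.59 after correction (adjusted p = 3.19e-05) and by 0.55 in KO library 1 alone (adjusted p = 4.99e-04), and it passed in each of the 20 alternative settings, of which KO library 1 alone has no KO spread. Igfbp7, a secreted protein that binds IGFs only weakly, had 24.2, 26.0, 22.5 and 25.4 CPM in WT and 19.4, 19.9 and 18.2 CPM in KO libraries 1 to 3. Igfbp7 fell by 0.36 (SE 0.0984, adjusted p by edgeR = 0.0135; corrected -0.58, adjusted p = 4.92e-04), a call lost without KO library 3 (adjusted p = 0.0759) and in KO library 1 alone (-0.34, adjusted p = 0.136). Exons of Igfbp7 overlap those of Polr2b on the other strand, and the strand setting of the counting is not given in the sources used here, so a share of its reads may belong to Polr2b.

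Igfbp5, a binding protein that also attaches to matrix, differed among the KO libraries themselves. It stood at 364.0 to 391.8 CPM in WT libraries and at 567.0, 334.2 and 385.8 CPM in KO libraries 1 to 3. KO library 1 was above every other library, KO library 2 below every WT library, and KO library 3 within the WT range. Over all libraries the difference was 0.18 on the log2 scale (SE 0.142, adjusted p by edgeR = 0.366). It was -0.052 without KO library 1 and not past the threshold, 0.58 in KO library 1 alone (adjusted p = 7.99e-05), 0.34 without KO library 2 (adjusted p = 0.0411) and 0.52 after correction (adjusted p = 3.63e-04). Every setting that called Igfbp5 either gave KO library 1 more weight, by leaving out KO library 2 or both other KO libraries, or corrected for length.

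Igfbp2 and Igfbp5 lie next to each other on chromosome 1, facing end to end, from 72824503 to 72852474 and from 72857932 to 72874884, with 5.46 kb between them. They are 29.6 and 29.7 Mb from Fhl2 on the same chromosome. The ratio of Igfbp5 to Igfbp2 per kilobase was 0.232 to 0.269 in WT libraries and 0.544, 0.269 and 0.296 in KO libraries 1 to 3. Without correction, only KO library 1 was far from the WT range. Dividing by length leaves the length trend of each library in place, and Igfbp5 (6.01 kb) is far longer than Igfbp2 (1.15 kb). After correction Igfbp5 rose by 0.52 and Igfbp2 fell by 0.59 over all libraries. A corrected ratio for each library was not computed. Igfbp3, the main carrier of IGFs in blood, was close to the lower end of what was tested, with 34 to 49 counts in WT and 50 to 58 in KO libraries (log2 fold change 0.39, SE 0.277, adjusted p by edgeR = 0.309). Its groups did not overlap, yet it passed in none of the 19 alternative settings that tested it.

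Per kilobase of mean protein-coding transcript, the order of levels in WT was Igfbp2 (252.9 ± 9.17 CPM per kilobase, SD, n = 4), Igf1 (217.3 ± 19.2), Igfbp4 (75.5 ± 1.57), Igfbp5 (63.0 ± 1.91), Igfbp7 (21.2 ± 1.33), Igf2r (13.7 ± 0.955), Igf1r (12.5 ± 0.615), Igfbp6 (4.14 ± 0.549), Irs1 (3.60 ± 0.102) and Igfbp3 (0.449 ± 0.0200). Ranges over the WT libraries overlapped between Igfbp2 and Igf1, between Igf2r and Igf1r, and between Igfbp6 and Irs1. Igfbp2 was at or above 97.6% of the tested genes with a length, Igf1 at or above 97.1% and Igf1r at or above 60.7%. In KO the order began with Igfbp2 (199.1 ± 22.8 CPM per kilobase, SD, n = 3), Igfbp4 (161.8 ± 23.6) and Igf1 (149.5 ± 6.74), whose ranges overlapped from each to the next. Igfbp4 thus had rank 3 in WT and rank 2 in KO. The place of Igf1 depends on the length taken: with the longest transcript it was at 60.5 CPM per kilobase in WT, with rank 3, behind Igfbp5 with an overlapping range.

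**Figure D3:**
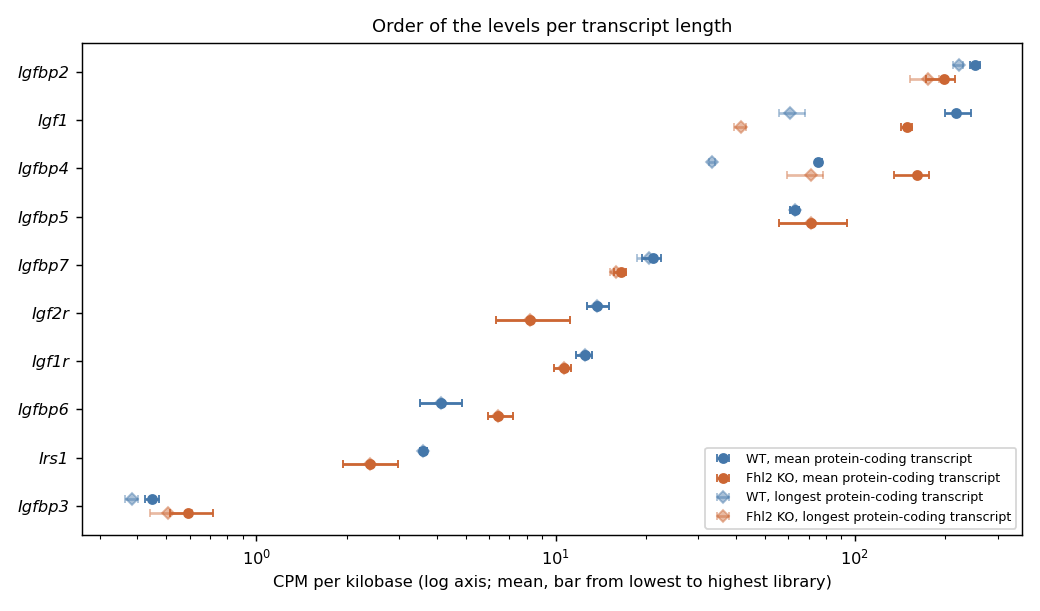
Mean CPM per kilobase (log axis) of the 10 genes in WT and Fhl2 KO, with bars from the lowest to the highest library. Circles use the mean protein-coding transcript and pale diamonds the longest one; in WT, Igf1 is at 217.3 with the first and 60.5 with the second.

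The makeup of the binding protein transcripts differed between the groups. Igfbp2 made up 60.1%, 61.3%, 61.8% and 59.3% of the summed CPM per kilobase of the 6 Igfbp genes in WT libraries 1 to 4 and 40.7%, 44.6% and 45.4% in KO libraries 1 to 3. Igfbp4 made up 17.6% to 18.5% in WT and 31.6%, 38.3% and 36.3% in KO. Its share in the KO mean was 17.3 percentage points above the WT mean, or 11.2 points with the longest transcripts. The share of Igfbp5 overlapped between the groups, at 14.2% to 15.9% in WT and 22.2%, 12.0% and 13.4% in KO. All shares and sums here use levels not corrected for the length trend. After that correction Igfbp5 itself was higher in KO (0.52, adjusted p by edgeR = 3.63e-04). The summed level of the 6 genes was 417.2 ± 7.87 CPM per kilobase (SD) over the 4 WT libraries and 455.8 ± 26.9 over the 3 KO libraries, with overlapping ranges. With longest transcripts it was 343.5 ± 6.41 in WT and 340.6 ± 12.7 in KO, so the sum showed no steady difference. Relative to Igf1, the sum was 1.72 to 2.13 in WT libraries and 2.74, 3.07 and 3.36 in KO libraries 1 to 3, so that each KO library was above each WT library. The ratio depends on the length taken for Igf1: with longest transcripts it was 5.09 to 6.29 in WT and 7.60, 8.05 and 8.95 in KO. The ratio of Igfbp4 alone to Igf1 was 0.302 to 0.388 in WT and 0.867, 1.17 and 1.22 in KO. With longest transcripts it was 0.478 to 0.614 in WT and 1.37, 1.86 and 1.93 in KO, the same factor in every library. Another length rescales a gene alike in all libraries, so it is no check on the difference between the groups. The correction for the length trend was not applied to these ratios. With longest transcripts, that correction left Igf1 itself at -0.20 (adjusted p by edgeR = 0.108). These shares and ratios are given without a test, since they combine genes whose differences were already known.

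**Figure D4:**
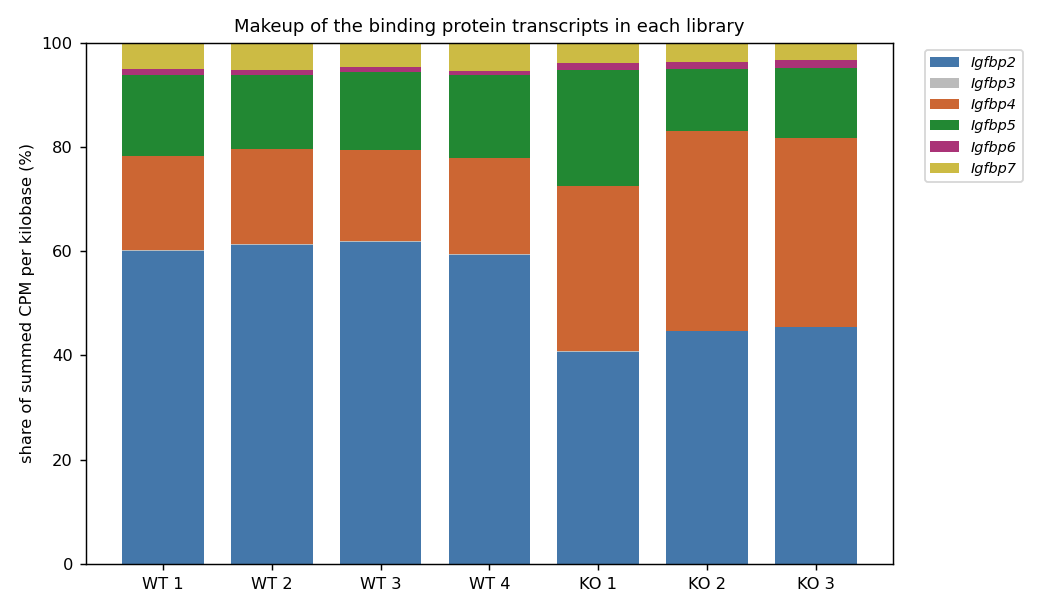
Share of each Igfbp gene in the summed CPM per kilobase of the 6 genes (vertical axis, percent) for each library. The Igfbp4 segment spans 17.6% to 18.5% in the WT libraries and 31.6% to 38.3% in the KO libraries, and the Igfbp2 segment is smaller in each KO library.

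The rest of the system was read from 8 lists of genes in or around it, 84 genes in all, of which 69 were tested. Of these, 9 were higher (13.5% of all genes tested were), 25 lower (15.6% of all genes) and 35 not past the threshold. Their median log2 fold change was -0.16. After correction for length and GC 26 passed, against 23.3% of all genes, and the lean towards lower was smaller. The PI3K-AKT and mTOR relay, which holds 12 of the 25 lower genes, then had 5 lower and 1 higher. Adaptors and negative regulators of the receptor went from 5 lower and 2 higher to 3 lower and 2 higher. The totals include a list of 9 granulosa genes that respond to FSH and IGF1 and are not IGF genes. Of its 7 tested genes, 4 were higher and 3 lower. The ligand Igf2 had 2 to 11 counts per library and was not tested, and neither Ins1 nor Igfbp1 had a count in any library. The insulin receptor Insr was the 1 gene tested of 7 other ligands, receptors and carriers. It fell by 0.28 (SE 0.0977, adjusted p by edgeR = 0.0422; corrected 0.05, adjusted p = 0.626). That call was lost without any of the WT libraries and without KO library 2 or 3 (adjusted p of 0.0673 to 0.204).

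Of the 7 tested genes for proteases that cut binding proteins and for their inhibitors, 1 rose and 1 fell (median -0.06). These shares are near those of all genes tested, 13.5% higher and 15.6% lower. The PAPP-A gene Pappa was low, at 3.00 ± 0.284 CPM in WT and 2.43 ± 0.391 in KO (log2 fold change -0.30, adjusted p by edgeR = 0.242). The stanniocalcin genes, whose products inhibit PAPP-A, did not pass: Stc1 was at 112.7 ± 10.2 and 132.3 ± 14.3 CPM (0.23, adjusted p = 0.0865; corrected 0.50, adjusted p = 3.66e-04) and Stc2 at 79.0 ± 3.08 and 75.8 ± 2.49 CPM (-0.06, adjusted p by edgeR = 0.639). Ctsd, the lysosomal protease cathepsin D, rose by 0.42 (SE 0.0971, adjusted p by edgeR = 0.00535; 0.0527 without KO library 3), and the metalloprotease gene Adam9 fell by 0.46 (SE 0.101, adjusted p = 0.00412). Among 9 tested genes for other proteins with an IGFBP-type domain, 1 rose and 1 fell (median -0.03). Ccn4 fell by 0.69 (SE 0.126, adjusted p by edgeR = 0.00118). Ccn2, a gene known as a YAP target, rose by 0.38 (SE 0.136, adjusted p = 0.0495), a call that leaving out WT library 1, 2 or 3, or KO library 2 or 3, ended (adjusted p of 0.0830 to 0.160).

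Of 17 tested adaptors and negative regulators of the receptor, 2 rose, 5 fell and 10 did not pass (median -0.13). Of all genes tested, 13.5% were higher and 15.6% lower. Grb10 and Grb14, related adaptors that bind and restrain the insulin and IGF1 receptors, differed in opposite directions. Grb10 fell by 0.63 (SE 0.0992, adjusted p by edgeR = 4.03e-04) from 118.7 ± 4.97 CPM in WT to 76.8 ± 11.0 in KO, and Grb14 rose by 0.36 (SE 0.0863, adjusted p = 0.00696) from 646.8 ± 32.1 to 827.4 ± 36.9 CPM. Both kept their direction and passed after correction (-0.59 and 0.24). In KO library 1 alone the differences were -0.41 and 0.35. The ubiquitin ligase gene Nedd4 fell by 0.46 (SE 0.0976; corrected -0.24, adjusted p = 0.0188), and the exchange factor gene Sos1 by 0.50 (SE 0.0969; corrected -0.08, adjusted p = 0.429).

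Of 22 tested genes of the PI3K-AKT and mTOR relay, 12 fell, none rose and 10 did not pass (median -0.26), against 15.6% of all genes lower and 13.5% higher. After correction 5 fell and 1 rose (median -0.09), a share of the 22 that is near the 23.3% of all genes called in that setting, and in KO library 1 alone none passed, against 4.60% of all genes. Low p-values in this list included those of the kinase gene Gsk3b (-0.42, SE 0.0916; corrected -0.19, adjusted p = 0.0701), the S6 kinase gene Rps6kb1 (-0.50, SE 0.114; corrected -0.31) and the catalytic subunit gene Pik3cb (-0.47, SE 0.110; corrected -0.25). Akt1 was at 327.2 ± 11.5 CPM in WT and 335.0 ± 23.4 in KO.

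**Figure D5:**
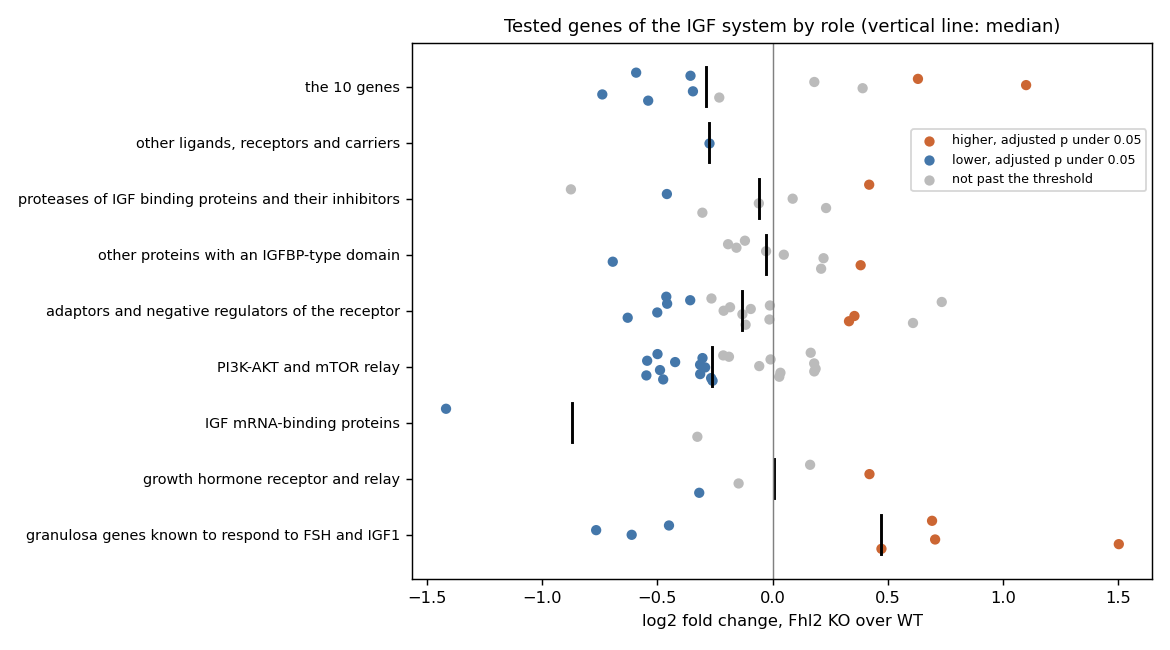
Log2 fold change of Fhl2 KO over WT (horizontal axis) for each tested gene by role, coloured by whether it passed an edgeR adjusted p of 0.05, with the median of each list as a vertical line. The relay list has 12 genes lower and none higher, and the list of FSH and IGF1 responsive genes is spread from -0.77 to 1.50.

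Igf2bp2, which encodes an RNA-binding protein of IGF2 mRNA, fell by 1.42 on the log2 scale (SE 0.188, adjusted p by edgeR = 7.81e-05), with means of 4.76 ± 0.802 CPM (SD, 4 WT libraries) and 1.79 ± 0.153 (SD, 3 KO libraries), -1.20 after correction and -1.28 in KO library 1 alone. It was the 1 gene called of 2 tested in its list (median -0.87). Of the growth hormone receptor and its relay, 1 of 4 tested genes rose and 1 fell (median 0.01), against 13.5% and 15.6% of all genes tested. Stat5a rose by 0.42 (SE 0.0902, adjusted p by edgeR = 0.00346), and the receptor gene Ghr fell by 0.32 (SE 0.0992, adjusted p = 0.0241; leaving out WT library 3 or 4, or KO library 3, ended the call at 0.0701 to 0.0932).

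Of 9 granulosa genes known to respond to FSH and IGF1, 7 were tested, 4 rose and 3 fell (median 0.47), against 13.5% and 15.6% of all genes tested. Cyp11a1, the first enzyme of steroid synthesis, and the inhibin alpha gene Inha rose (1.50 and 0.71), as did the cholesterol carrier gene Star (0.69), while the inhibin beta B gene Inhbb fell (-0.77; all with edgeR adjusted p of at most 3.59e-04). The FSH receptor gene Fshr was low, at 5.40 ± 0.439 CPM in WT and 7.52 ± 2.23 in KO with overlapping libraries (0.47, SE 0.172, adjusted p by edgeR = 0.0477). Its call was lost without any of the WT libraries and without KO library 1 or 3 (adjusted p of 0.0730 to 0.221). Cyp19a1 and Lhcgr, the LH receptor gene, were not tested, with at most 2 counts in a WT library and 6 to 17 in a KO library.

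Markers of other cells moved between the groups as well, and their part in these results was not tested. For the counts of markers below, 13.5% of all genes tested were called higher and 15.6% lower. The summed level of 9 smooth muscle and pericyte markers was 1030 to 1143 CPM in WT and 578.1 to 673.4 in KO (5 of 8 tested lower, Rgs5 at 0 in all libraries). That of 8 stroma and fibroblast markers was 364.5 to 422.3 CPM in WT and 118.0 to 163.8 in KO (5 of 7 tested lower, with Dcn, Lum and Dpt under 1 CPM). That of 8 surface epithelium markers was 109.6 to 126.4 CPM in WT and 139.6 to 182.3 in KO (5 of 7 tested higher), and that of 6 lung markers 0.128 to 0.418 and 1.16 to 25.3 CPM (2 of 3 tested higher). For 6 theca cell markers the sum was 6071 to 6687 CPM in WT and 7714 to 8191 in KO, nearly all from Aldh1a1, with the defining markers Cyp17a1 and Insl3 at most at 0.0659 CPM. Of 3 theca markers tested, 2 were higher and 1 lower. The lower one was Ptch1, at 44.0 to 48.2 CPM in WT and 29.5 to 34.9 in KO. Endothelial markers (4.06 to 4.85 and 4.17 to 4.69 CPM, none of 5 tested called), leukocyte markers (21.4 to 22.9 and 20.5 to 25.6 CPM, none of 6 called) and oocyte markers (2.85 to 8.65 and 4.26 to 10.5 CPM, 1 of 6 lower) overlapped between the groups. In bulk libraries such as these, fewer cells of a type and less RNA per cell cannot be told apart.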

How the data were processed

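Read counts per gene were analysed for 7 libraries of primary mouse granulosa cells. Per the labels' protocols, TRIzol was used for the RNA and a strand-preserving mRNA kit for the libraries. The deposited values are counts: whole reads per gene symbol, 1 column per library, not normalized by the authors. Per the submitters' processing notes, the tools were HISAT2 2.2.1, featureCounts 1.6.4, DESeq2 1.28.1, Cufflinks 2.2.1, fastp and SAMtools, and the build was mm10; their roles, the annotation release and the strand setting were not given in the sources used here.

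All genes were fitted in edgeR 4.0.16 (R 4.3.3; filterByExpr with minimum count 10, TMM scaling, robust glmQLFit, glmQLFTest, with a term for genotype alone). Adjustment was by Benjamini-Hochberg across all 15798 tested genes; a call is an adjusted p under 0.05. CPM are TMM scaled. SEs are on the log2 scale and derived from the F statistic. Lengths and positions came from GENCODE M21 (mm10), which gave a length for 98.6% of the genes tested, and promoters from RefSeq (GRCm38.p6). In the correction, natural splines with 4 degrees of freedom on log2 length and GC entered as offsets. All adjusted p-values are from edgeR unless DESeq2 1.42.0 or limma 3.58.1 (voom) is named. The fits were tested on simulated data. Within groups, any pair of libraries differed by a chi-square of at least 9.72 per degree of freedom, so none was a duplicate.

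The members, lists and settings were chosen with earlier results of these data known. All 10 members are named. From each list every called gene is named where there are at most 4, otherwise the 4 with the smallest p (some genes under this rule are not reported here); the 5 genes most like Igf1 come from those of at least 10 CPM without predicted-gene names. Irs2, Pappa, Stc1, Stc2, Akt1 and Fshr were named after their values were seen. Alternatives were other tools, scalings and filters, each library left out in turn, the replicate number as a block, corrections for length, KO library 1 alone and no robust estimation. The length correction with longest transcripts, the alternatives of the lists and those leaving out libraries for levels and shares were chosen after seeing the data.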

Additional observations from a re-analysis of the deposited data

How the results depend on the processing

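Of the 10 genes, Igfbp4 and Igfbp2 kept their calls in all 20 alternatives and Igf1 in 19 of them. Genes called higher numbered 2, but 1 with the filter of 10 CPM, which leaves Igfbp6 untested, 4 under the correction for length and GC and 4 under that for length alone; leaving out a library gave 1 to 3. Genes called lower numbered 5, but 3 under the length correction with longest transcripts. Leaving out a library gave 3 to 6. Over all genes, 2128 of 15798 were called higher and 2460 lower. These counts were 1876 and 1752 of 15574 under the correction for length and GC. They were 1516 and 1461 of 15574 under that with longest transcripts, and 662 and 995 of 16203 without KO library 3. Igf1r turned to 0.30, 0.27 and 0.25 on the log2 scale under the corrections for length and GC, length, and length with longest transcripts, and Igfbp5 lay between -0.052 and 0.34 when a library was left out. The cause of these shifts was not tested beyond the corrections themselves.

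Called genes of the wider lists numbered 34, but 22 under the length correction with longest transcripts and 11 for KO library 1 alone, a setting with fewer samples; leaving out a library gave 17 to 40, the lowest without KO library 3. With the replicate number as a block (6 libraries) that count was 22, and the block left 2 members higher and 4 lower, with the call of Igfbp7 lost (adjusted p by edgeR = 0.0755); over all genes it gave 3301 calls against 2960 in the same libraries without it. Deviations of same-numbered WT and KO libraries correlated at 0.0326, -0.00130 and -0.0324. These values do not show whether libraries of the same number were handled together, which was not tested. The Igf1 level in WT, 217.3 CPM per kilobase, was 43.1 over the union of exons and 60.5 with the longest transcript (208.2 to 223.1 without a library). The difference in the Igfbp4 share, 17.3 points, was 11.6 and 11.2 points with those lengths (15.8 to 19.2 without a library). Depth limits Igfbp3 (34 to 58 counts) and leaves Igf2 untested.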
